A study of Mus musculus with 24 samples.

Results

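The genes described here were grouped under the LIF, endothelin 2 and FGF2 signals of the injured retina. The rule named 10 genes by symbol, of which 9 were analysed here, out of 31346 nuclear genes, and 1 was not analysed here. They are the ligand genes Lif, Edn2 and Fgf2, the receptor genes Lifr, Il6st and Osmr, the signal gene Stat3, its brake Socs3, and Bcl3, a regulator of NF-kappaB. All 9 passed the filter on low counts in each comparison. The 24 libraries are whole retinas profiled by RNA sequencing, 1 library per mouse, and each library is called a retina below. The wild-type group (WT, n = 4) was C57BL/6J, dark-reared until it was moved to vivarium light on day 29, fed base diet and collected on day 37. All rd10 mice shared the Rd10 genotype, a Pde6b mutation that kills rods, on a C57BL/6J background. The dark-reared group (rd10 DR, n = 4) was kept on base diet in darkness and was collected on day 28 by the series design, while its labels state day 30. The vehicle group (rd10 vehicle, n = 8) and the treated group (rd10 TMB, n = 8) were dark-reared, moved to vivarium light on day 29 and collected on day 37 by the design, while their labels, like those of the WT mice, end on day 36. The rd10 vehicle mice ate base diet, and the rd10 TMB mice ate from day 28 a diet with tamsulosin (an alpha-1 adrenergic blocker), metoprolol (a beta-1 adrenergic blocker) and bromocriptine (a dopamine receptor agonist). Females and males were equal in number in every group. Light exposure and age differ together between rd10 DR and the other rd10 groups, so their parts cannot be told apart.

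In the mouse retina, LIF is released mainly by Müller glia after photoreceptor injury. It binds a receptor formed by LIFR and gp130, the product of Il6st, and the associated kinases activate STAT3, which switches on Socs3 as a feedback brake. Endothelin 2 is made by stressed photoreceptors and signals to glia, and FGF2 is a growth factor that prolongs photoreceptor survival when it is supplied to degenerating retinas.

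Socs3 and Lif, on opposite strands of chromosome 11, were the members with a match to a motif searched before a RefSeq start, which is why these stretches are shown. Windows of 250 bases before each RefSeq start were searched on both strands for the STAT motif TTCNNNGAA and the AP-1 motif TGANTCA, and all 9 genes matched 1 or more windows, 10 in all. The 2 matching stretches are shown with the motif in capitals and are cut where an annotated exon of the gene begins. They come from RefSeq on build GRCm38.p6 and read 5′ to 3′ on the strand of the gene. The Socs3 stretch is chr11:117969452-117969616 on the minus strand, and the Lif stretch is chr11:4257318-4257556 on the plus strand. Of these, the first lies inside the annotated span of Socs3, 117966079 to 117970047, before a RefSeq start within that span. The second ends just before the annotated span of Lif.
Socs3: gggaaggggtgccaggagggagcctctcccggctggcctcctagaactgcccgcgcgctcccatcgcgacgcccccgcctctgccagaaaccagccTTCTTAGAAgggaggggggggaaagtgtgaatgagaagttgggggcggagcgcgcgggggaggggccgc
Lif: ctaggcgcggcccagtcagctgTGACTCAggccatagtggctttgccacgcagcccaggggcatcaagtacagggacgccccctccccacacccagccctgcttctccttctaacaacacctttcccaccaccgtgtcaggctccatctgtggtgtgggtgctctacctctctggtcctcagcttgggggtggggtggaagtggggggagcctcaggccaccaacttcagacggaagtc
The STAT match of Socs3, TTCTTAGAA, lies 154 to 146 bases before the start, and 7.02% of 32851 windows of all genes hold such a match. The AP-1 match of Lif, TGACTCA, lies 228 to 222 bases before the start, and 6.75% of all windows hold one. A match is a description of letters and not a measured binding site.

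Nuclear counts per library lay between 56799680 and 86471014, and none of the 68 pairs of libraries within a group was a duplicate. Pairs across groups were not checked. Levels are given as CPM, the count of a gene scaled to the total of its library after TMM normalisation. Vehicle retina 4 stood far above the other rd10 vehicle retinas for Lif, Socs3, Osmr and Bcl3, so results that rest on it are given with and without it. The rd10 titles carry the prefixes RD8, RD9 or RD10, of unstated meaning, and the 3 light-exposed females with RD9, which are vehicle retina 4 and TMB retinas 1 and 2, had the highest Lif levels of all retinas. Summed CPM of 8 rod markers had medians of 74140 in WT, 44960 in rd10 DR, 12720 in vehicle-fed rd10 and 22470 in TMB-fed rd10 retinas, while those of 8 Müller glia markers were 4135, 4506, 6299 and 5701. Microglia and macrophage markers summed to medians of 64.9, 194, 252 and 234 CPM in the same order, and 10 of 10 were higher than WT in each rd10 group. Astrocyte markers summed to 94.1, 283, 359 and 303 CPM, and 2, 5 and 3 of 5 were higher than WT in rd10 DR, rd10 vehicle and rd10 TMB. Gfap, 1 of these 5 and also counted below as a STAT3 response gene, had means of 38.1, 205.9, 274.6 and 197.3 CPM. Of all tested genes, 14.5%, 31.6% and 27.2% were called higher than WT in these rd10 groups. The part of these cell types in the results was not tested. In whole retinas, fewer cells of a type and less RNA per cell cannot be told apart. Retina numbers only name a retina within its group.

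The comparison of rd10 DR with WT sets the mutant retina before light exposure against the normal one. Genotype, age and light exposure all differ between these groups, and their parts cannot be told apart. Of the 9 genes, 8 were higher in rd10 DR and 0 were lower, where 24.7% of all 20051 tested genes were called in either direction and 14.5% were called higher. Bcl3, Edn2 and Lif changed most, and Lifr was the only member that did not pass the test. In 8 of 9 genes the rd10 DR and WT retinas did not overlap, against 26.9% of all tested genes.

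Lif (GRCm38 chromosome 11, 4257557 to 4272514), the IL-6 family cytokine, was barely expressed in WT retinas, at 0.484, 0.447, 0.496 and 0.401 CPM, or 27 to 30 counts. The rd10 DR retinas had 6.88, 3.68, 2.89 and 2.20 CPM. Every rd10 DR retina was above every WT retina, and the first was the highest. The level was 8.64-fold higher (log2 fold change 3.11, SE 0.342, edgeR adjusted p = 0.000124), a call that was lost in 1 fit over all groups (edgeR adjusted p = 0.206).

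Edn2 (chromosome 4, 120161206 to 120167360), which encodes endothelin 2, measured 9.58, 8.55, 5.96 and 6.42 CPM in WT retinas. In rd10 DR retinas it measured 51.4, 74.0, 68.6 and 70.3 CPM. The groups lay far apart, and the gene was 8.80-fold higher (log2 fold change 3.14, SE 0.161, edgeR adjusted p = 1.1e-06).

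Fgf2 (chromosome 3, 37348346 to 37410108), the gene of basic fibroblast growth factor, had 26.5, 24.9, 19.7 and 22.6 CPM in WT retinas. In rd10 DR retinas it had 160.5, 137.9, 148.1 and 145.9 CPM. All 4 dark-reared retinas lay close together and above WT, by 6.41-fold (log2 fold change 2.68, SE 0.082, edgeR adjusted p = 5.94e-08). The libraries carry no strand, and 640 exonic bases of Fgf2, or 9.44% of its exonic length, overlap Nudt6 on the other strand. Nudt6 was low, between 1.31 and 3.61 CPM over the WT and rd10 DR retinas.

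Of the receptors, Osmr (chromosome 15, 6813577 to 6874969), the oncostatin M receptor, rose the most. Its mean was 8.23 ± 1.38 CPM in WT and 33.6 ± 6.62 CPM in rd10 DR retinas (SD, n = 4 each), a 4.13-fold higher level (edgeR adjusted p = 8.6e-06). Il6st (chromosome 13, 112464070 to 112510086), the shared signal subunit gp130, was 1.47-fold higher (149.6 ± 12.2 to 217.5 ± 18.1 CPM, edgeR adjusted p = 0.000438). In males alone it was 1.43-fold higher (95% interval of the log2 fold change 0.21 to 0.81), without reaching the threshold (edgeR adjusted p = 0.0917). Lifr (chromosome 15, 7090614 to 7197489), the LIF-binding subunit, had 112.3 ± 12.7 CPM in WT and 99.8 ± 11.6 CPM in rd10 DR retinas, and its log2 fold change of -0.15 (95% interval -0.35 to 0.05) did not pass the test (edgeR adjusted p = 0.258). Without WT retina 3 it was called lower, at -0.24 (edgeR adjusted p = 0.0324).

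Stat3 (chromosome 11, 100885098 to 100939540), the transcription factor of the pathway, rose 2.83-fold, from 97.4 ± 10.5 to 272.3 ± 27.5 CPM (edgeR adjusted p = 2.31e-06). Socs3 (chromosome 11, 117966079 to 117970047), its feedback inhibitor, rose 4.83-fold (edgeR adjusted p = 3.98e-05), with 5.14, 4.08, 4.33 and 3.64 CPM in WT and 31.1, 17.8, 17.4 and 15.7 CPM in rd10 DR retinas. The first dark-reared retina was again the highest. Bcl3 (chromosome 7, 19808462 to 19822770), an atypical IkappaB protein that binds NF-kappaB subunits in the nucleus, had 0.860, 0.638, 0.644 and 0.609 CPM in WT and 15.4, 11.9, 13.5 and 10.7 CPM in rd10 DR retinas. It was 18.99-fold higher (log2 fold change 4.25, SE 0.163, edgeR adjusted p = 1.94e-07), the largest fold of the 9 genes in this comparison.

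**Figure D1:**
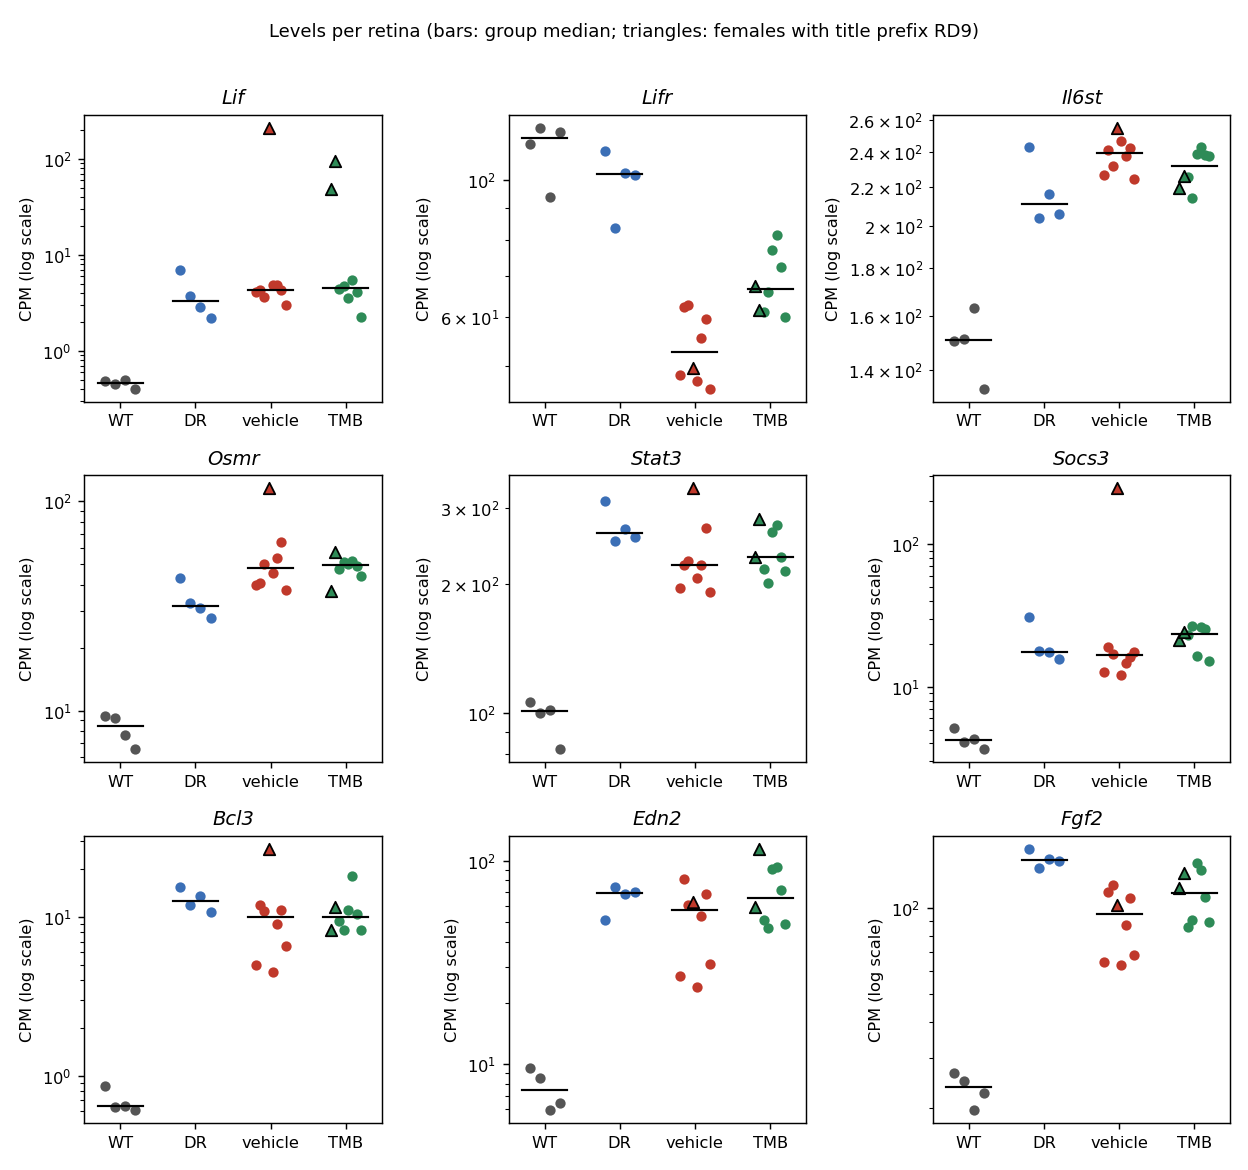
CPM of the 9 genes in each of the 24 retinas on log axes, with bars at group medians and triangles for the light-exposed females with the title prefix RD9. For 8 genes all rd10 retinas lie above all WT retinas, Lifr is lowest in rd10 vehicle retinas, and the vehicle triangle reaches 209 CPM for Lif and 246 CPM for Socs3.

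The order of the levels among genes was compared per kilobase of exonic length. In WT retinas the mean CPM per kilobase was 13.5 for Il6st, 10.4 for Lifr, 10.2 for Stat3, 5.22 for Edn2, 3.46 for Fgf2, 1.49 for Socs3, 0.679 for Osmr, 0.278 for Bcl3 and 0.105 for Lif. Il6st, Lifr and Stat3 thus stood above the 3 ligands in WT, and Osmr stood below Edn2 and Fgf2. In rd10 DR retinas Edn2 led with 45.2 CPM per kilobase, followed by Stat3 with 28.6 and Fgf2 with 21.8, while Lif remained last at 0.899.

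The comparison of rd10 vehicle with WT describes the untreated retina after light exposure. Of the 9 genes, 8 were higher and Lifr was lower, at a background of 61.8% of 20763 tested genes called, 31.6% higher and 30.2% lower. None of the 9 genes overlapped between the groups, against 42.2% of all tested genes without overlap. Most tested genes were called in this comparison, so the count of calls is described and the sizes are given.

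Lif ranged from 3.02 to 209 CPM over the 8 rd10 vehicle retinas, with a median of 4.30 CPM. Only vehicle retina 4 was above 4.85 CPM, and all 8 retinas were above the 4 WT retinas. With it, Lif was 65.5-fold higher than in WT (log2 fold change 6.03, SE 1.74, edgeR adjusted p = 0.00765), and without it 9.05-fold higher (3.18, SE 0.168, edgeR adjusted p = 1.78e-08), where 60.9% of tested genes were called, 31.3% higher and 29.6% lower. Socs3 ranged from 12.1 to 246 CPM with a median of 16.7 CPM, and retina 4 was again the one high value. Socs3 was 10.4-fold higher with it (edgeR adjusted p = 0.00762) and 3.65-fold higher without it (log2 fold change 1.87, SE 0.141, edgeR adjusted p = 1.94e-07).

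Lifr ranged from 46.0 to 62.8 CPM with a median of 52.6 CPM in rd10 vehicle retinas, below the lowest WT retina at 93.7 CPM. It was 2.08-fold lower (log2 fold change -1.05, 95% interval -1.25 to -0.86, edgeR adjusted p = 3.15e-07). The other receptor genes went the opposite way, Osmr 6.80-fold higher (5.76-fold without vehicle retina 4) and Il6st 1.60-fold higher (edgeR adjusted p = 1.97e-06 and 1.36e-07 with all retinas).

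Edn2 ranged from 23.99 to 81.7 CPM with a median of 57.04 CPM, Fgf2 from 63.2 to 120.3 CPM with a median of 95.02 CPM, and Bcl3 from 4.50 to 26.9 CPM with a median of 9.98 CPM. Within the group, vehicle retinas 1, 5 and 8 had the 3 lowest values of Edn2, Fgf2, Bcl3 and Stat3, a set singled out after its values were seen. Their Edn2 levels were 27.2, 23.99 and 31.0 CPM, and the other 5 retinas had 53.2 CPM or more. Their summed rod markers were 8527, 6534 and 11480 CPM, and those of the other 5 retinas lay between 10490 and 21890 CPM. The part of rod content in these levels was not tested. Against WT, Edn2 was 6.72-fold, Fgf2 3.89-fold, Bcl3 15.7-fold (12.3-fold without vehicle retina 4) and Stat3 2.40-fold higher, with edgeR adjusted p = 8.22e-06, 7.32e-07, 7.74e-06 and 2.09e-06.

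The comparison of rd10 TMB with WT asked what remained under treatment. Again 8 genes were higher and Lifr was lower, at a background of 52.2% of 20848 tested genes called, 27.2% higher and 24.9% lower, and none of the 9 genes overlapped with WT (32.6% of all tested genes). Lif ranged from 2.27 to 93.9 CPM with a median of 4.55 CPM. TMB retinas 1 and 2, with 48.8 and 93.9 CPM, were the high ones, and the other 6 had at most 5.43 CPM. Lif was 45.6-fold higher than in WT (log2 fold change 5.51, SE 1.34, edgeR adjusted p = 0.00305), and 8.93-fold higher without these females (3.16, SE 0.243, edgeR adjusted p = 1.61e-06). Socs3 ranged from 15.2 to 26.8 CPM with a median of 23.6 CPM and no value apart, 5.197-fold above WT (edgeR adjusted p = 1.33e-07). Lifr ranged from 60.1 to 81.6 CPM with a median of 66.8 CPM, 1.64-fold below WT (edgeR adjusted p = 9.83e-06). Bcl3 was 15.6-fold, Edn2 9.44-fold, Osmr 5.92-fold, Fgf2 4.83-fold, Stat3 2.46-fold and Il6st 1.54-fold higher, each with an edgeR adjusted p of at most 6.48e-07. The 3 comparisons share the 4 WT retinas and are therefore not independent of each other.

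**Figure D2:**
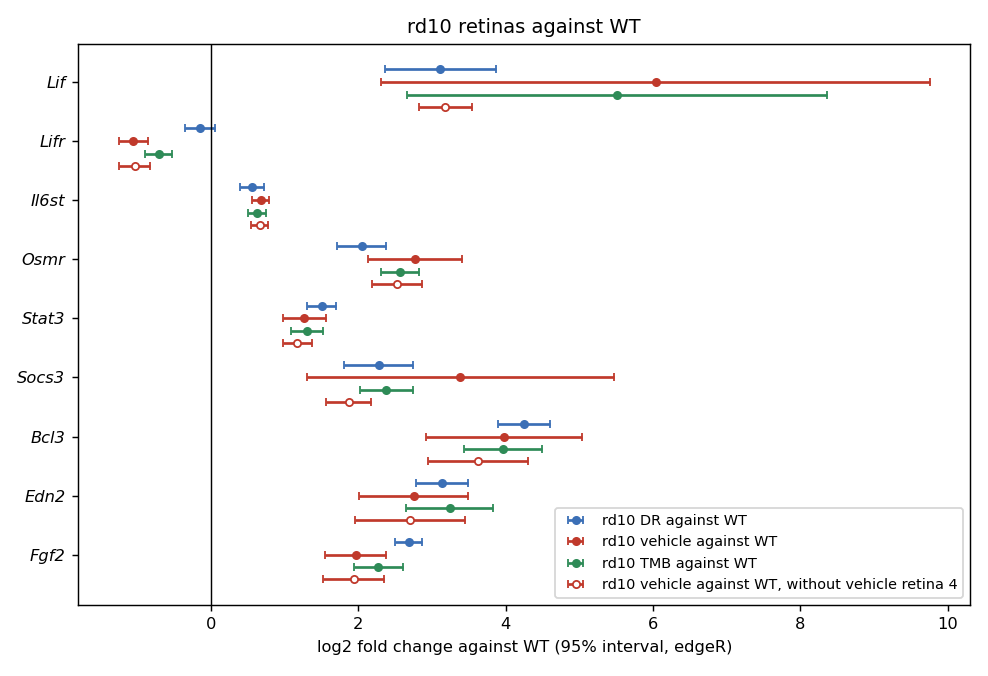
Log2 fold changes of the 9 genes against WT with 95% intervals from edgeR, for rd10 DR, rd10 vehicle and rd10 TMB, and for rd10 vehicle without vehicle retina 4 (open circles). The intervals of Lif and Socs3 in rd10 vehicle narrow to 2.82 to 3.54 and 1.56 to 2.17 without that retina. Lifr is the gene whose fold changes lie below 0, and its rd10 DR interval, -0.35 to 0.05, crosses 0.

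Against rd10 DR, the light-exposed groups differed in fewer members. In rd10 vehicle, 1 gene was higher and 2 were lower, at a background of 42.6% of 20850 tested genes called, 21.9% higher and 20.6% lower. Lifr was 1.85-fold lower (log2 fold change -0.89, SE 0.092, edgeR adjusted p = 6.57e-06) and Fgf2 1.63-fold lower (-0.70, SE 0.157, edgeR adjusted p = 0.00204), and these 2 genes did not overlap between the groups (26.8% of all tested genes). All 8 rd10 vehicle retinas had less Fgf2 than the lowest rd10 DR retina. Osmr was 1.66-fold higher (edgeR adjusted p = 0.0319), and 1.41-fold higher without vehicle retina 4 (edgeR adjusted p = 0.0103), but its call ended when rd10 DR retina 2, 3 or 4 was left out (edgeR adjusted p = 0.0733, 0.0828 and 0.0976). Lif had a log2 fold change of 2.93 (95% interval 0.10 to 5.77, edgeR adjusted p = 0.0898), which was 0.08 (-0.42 to 0.58) without vehicle retina 4. In males alone Lif was called higher, at 0.74 (edgeR adjusted p = 0.0297). With RD9 alone, which includes vehicle retina 4, it was also called higher, at 4.23 (edgeR adjusted p = 0.0169). Socs3 turned from 1.12 to -0.39 when that retina was left out (edgeR adjusted p = 0.291 and 0.069). Without it Stat3 was called lower at -0.32 (edgeR adjusted p = 0.00634) and Bcl3 at -0.62 (edgeR adjusted p = 0.0423), where 42.1% of tested genes were called, 21.8% higher and 20.3% lower. Edn2 at -0.37 and Il6st at 0.13 did not pass the test (edgeR adjusted p = 0.294 and 0.0517).

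In rd10 TMB against rd10 DR, Osmr was 1.44-fold higher (edgeR adjusted p = 0.00326), Lifr 1.47-fold lower (edgeR adjusted p = 0.000375) and Fgf2 1.32-fold lower (edgeR adjusted p = 0.0289), at a background of 23% of 20900 tested genes called, 11.6% higher and 11.4% lower. Lifr was the only gene without overlap (14.1% of all tested genes). The call of Osmr was lost in females alone (log2 fold change 0.346, edgeR adjusted p = 0.287) and in 1 fit over all groups (0.535, edgeR adjusted p = 0.0758). The call of Fgf2 ended without rd10 DR retina 1, 3 or 4 or TMB retina 4, with edgeR adjusted p from 0.0515 to 0.0907. Bcl3, at -0.28 (edgeR adjusted p = 0.283), was called lower at -0.43 without TMB retina 6 (edgeR adjusted p = 0.0188). Lif had a log2 fold change of 2.40 (edgeR adjusted p = 0.104), which was 0.05 (95% interval -0.55 to 0.66) without the RD9 females. The changes of Edn2 at 0.11, Socs3 at 0.11, Il6st at 0.08 and Stat3 at -0.19 did not pass the test. Both comparisons share the 4 rd10 DR retinas.

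The comparison of rd10 TMB with rd10 vehicle asked what the drug diet changed. With all 16 retinas, 1 of 9 genes passed the test, at a background of 5.69% of 20251 tested genes called, 3.37% higher and 2.32% lower. That gene was Lifr, with a mean of 68.5 ± 7.88 CPM in rd10 TMB and 54.0 ± 6.95 CPM in rd10 vehicle retinas (SD, n = 8 each). It was 1.27-fold higher under the diet (log2 fold change 0.34, SE 0.078, edgeR adjusted p = 0.0258), still below WT. The groups overlapped between 60.1 and 62.8 CPM. The call ended without vehicle retina 1, vehicle retina 5 or TMB retina 5 (edgeR adjusted p = 0.0591, 0.0568 and 0.0574) and without the RD9 females (0.35, edgeR adjusted p = 0.094), and it was not reached in females alone (0.20, edgeR adjusted p = 0.457), males alone (0.48, edgeR adjusted p = 0.188), RD9 retinas alone (0.32, edgeR adjusted p = 0.192) or RD10 retinas alone (0.31, edgeR adjusted p = 0.264), with the sign the same in each. The counts of all genes rest on the same libraries, since without vehicle retina 1 only 1 gene was called higher and 1 lower, and without vehicle retina 5 only 2 higher and 1 lower.

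Socs3 turned direction on a single retina. Its medians were 23.6 CPM in rd10 TMB and 16.7 CPM in rd10 vehicle, while its means were 22.3 ± 4.38 and 44.4 ± 81.5 CPM. With all retinas the log2 fold change was -1.003 (SE 0.578, 95% interval -2.21 to 0.21, edgeR adjusted p = 0.338). Without vehicle retina 4 it was 0.51 (SE 0.126, 95% interval 0.25 to 0.77, edgeR adjusted p = 0.0459), a 1.42-fold higher level in rd10 TMB, where 2.19% of 20383 tested genes were called, 1.42% higher and 0.77% lower. DESeq2, which replaced the outlying count of Socs3 by its own estimate, gave 0.46 (DESeq2 adjusted p = 0.0058), where 10.6% of tested genes were called, 5.99% higher and 4.64% lower. Without all 3 RD9 females the value was 0.50 (edgeR adjusted p = 0.0949).

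Lif did not pass the test in any of these sets. Its log2 fold change was -0.52 with all retinas (95% interval -2.69 to 1.65), 2.33 without vehicle retina 4 (0.76 to 3.90, edgeR adjusted p = 0.0838) and -0.02 without the RD9 females (-0.37 to 0.32, edgeR adjusted p = 0.964). Edn2 was 0.49 (95% interval -0.04 to 1.01, edgeR adjusted p = 0.272) and Fgf2 0.31 (-0.00 to 0.62, edgeR adjusted p = 0.232), with intervals that allow a rise but missed the threshold. Il6st at -0.05 (-0.13 to 0.02), Osmr at -0.20 (-0.59 to 0.18), Stat3 at 0.03 (-0.18 to 0.25) and Bcl3 at -0.01 (-0.62 to 0.60) did not pass the test. None of the 9 genes was without overlap between the groups (0.291% of all tested genes).

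**Figure D3:**
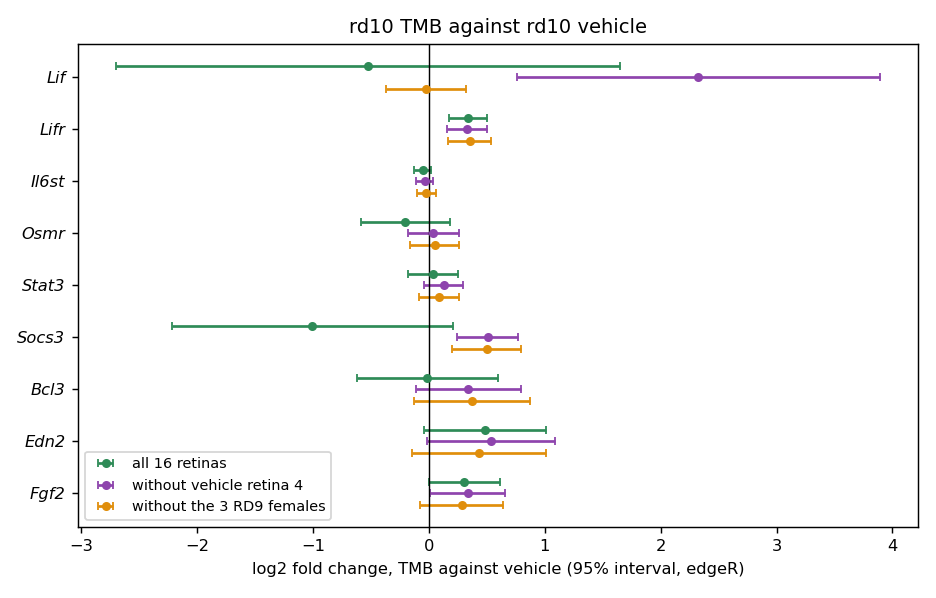
Log2 fold changes of the 9 genes in rd10 TMB against rd10 vehicle with 95% intervals from edgeR, with all 16 retinas, without vehicle retina 4 and without the 3 RD9 females. Socs3 moves from -1.003 to 0.51 and Lif from -0.52 to 2.33 when vehicle retina 4 is left out, and Lifr stays between 0.33 and 0.35.

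The effect of the diet was also compared between females and males by an interaction term. In edgeR 0 of the 9 genes and 0 of 20251 tested genes were called, with 776 genes at an unadjusted p under 0.05. Socs3 had an interaction of -2.09 (95% interval -4.11 to -0.08, edgeR adjusted p = 0.999), which was 0.09 without vehicle retina 4, and Bcl3 had -1.16 (edgeR adjusted p = 0.999), which was -0.59 without it.

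Of the 9 genes, Lif was the only one for which all 3 light-exposed RD9 females stood above the other light-exposed rd10 retinas. Vehicle retina 4, TMB retina 1 and TMB retina 2 had 209, 48.8 and 93.9 CPM of Lif, and the other 13 light-exposed rd10 retinas had between 2.27 and 5.43 CPM. Socs3 was 246 CPM in vehicle retina 4 but 21.2 and 24.1 CPM in the TMB retinas, within the 12.1 to 26.8 CPM of the other 13. Vehicle retina 4 also had the highest level among light-exposed rd10 retinas for 6 of the 9 genes, including Stat3 at 333.8 CPM, Osmr at 115 CPM and Bcl3 at 26.9 CPM. Of the light-exposed rd10 retinas, TMB retina 1 had the lowest Osmr level, 37.5 CPM, and TMB retina 2 the highest Edn2 level, 114 CPM. Summed astrocyte markers, which include Gfap, were 728 CPM in vehicle retina 4 and at most 375 CPM in the other 7 rd10 vehicle retinas, and its summed microglia markers, 254 CPM, lay within their range. Pigment epithelium markers summed to 259.5 CPM in it, 197 CPM in TMB retina 1 and 543.5 CPM in TMB retina 2, beside 824 CPM in TMB retina 4, where Lif was 4.70 CPM. The part of these markers in the Lif levels was not tested. The prefix and sex were crossed unevenly, with 1 RD9 female in rd10 vehicle and 2 in rd10 TMB, so diet cannot be compared within them.

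**Figure D4:**
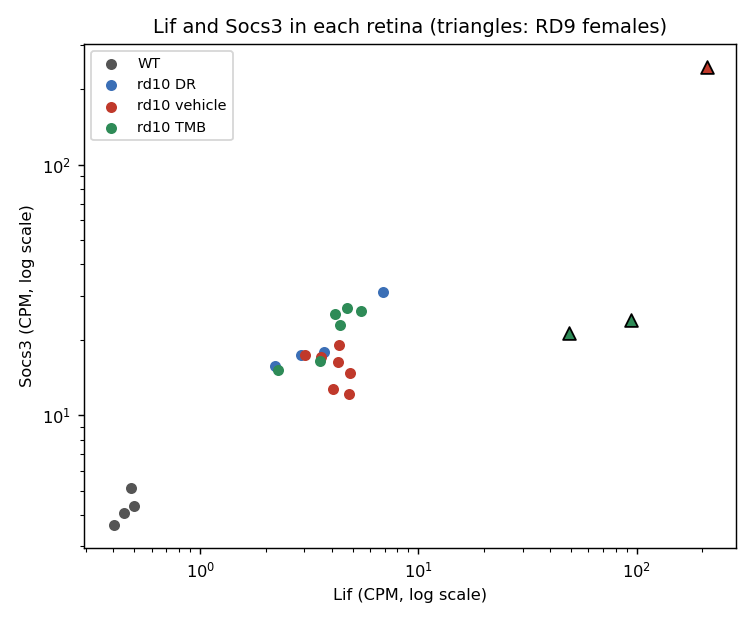
Lif against Socs3 in CPM on log axes, with 1 point per retina and triangles for the RD9 females. The 2 treated triangles lie at 48.8 and 93.9 CPM of Lif with Socs3 near 21 to 24 CPM, and the vehicle triangle lies apart at 209 and 246 CPM.

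Genes with the pattern most like that of Lif, Edn2 and Fgf2 were ranked by Pearson's r of log2(CPM + 0.5) over 24 retinas among 16039 genes with a mean of at least 1 CPM, as a description. For Lif they were Klf10 (0.985), Epha2 (0.971), Csrnp1 (0.952), F3 (0.948) and Tnfrsf12a (0.946). Klf10 reached 50.9 CPM at most in rd10 vehicle retinas with a median of 13.6 CPM. Without vehicle retina 4 only Klf10 and Epha2 stayed among the first 5. For Edn2 they were Gnb3 (0.982), Fgf2os (0.980), Fhad1 (0.972), Fgf2 (0.969) and E2f6 (0.964). For Fgf2 they were Gm37904 (0.97), Edn2 (0.969), Fhad1 (0.965), E2f6 (0.962) and Kremen1 (0.959). By Spearman's rho 1 of the 5 genes stayed among the first 5 for Lif, 3 for Edn2 and 0 for Fgf2, and the rho of Edn2 with Fgf2 was 0.820. Without vehicle retina 4, Bcl3 (0.980) and Stat3 (0.973) entered the first 5 for Fgf2. The gap between WT and rd10 retinas enters each of these values. The values for Lif also hold the high Lif levels of the 3 light-exposed RD9 females. TMB retinas 1 and 2 remain among them when vehicle retina 4 is left out. By Spearman's rho with Lif, Csrnp1 ranked 248 and F3 ranked 170. Gnb3 encodes the transducin subunit of cones and ON bipolar cells and rose from 443 ± 21.7 CPM in WT to 887 ± 87.1 CPM in rd10 DR retinas. Fgf2os is transcribed from the opposite strand across the start of Fgf2, with 0 shared exonic bases, and measured 3.27 ± 1.003 CPM in WT and 19.4 ± 2.03 CPM in rd10 DR retinas, and reads of overlapping antisense genes are not separated by strand.

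Of the other genes that overlap members, Stat5a shares 72 exonic bases with Stat3 and had group means of 3.79 to 7.19 CPM. Gm16175 shares 161 exonic bases with Bcl3 and stayed at or below 0.119 CPM, and Gm16174 and Gm42923 share 0 exonic bases with Bcl3 and Fgf2 and reached at most 1.43 and 0.331 CPM. Gm43439 shares 255 exonic bases with Fgf2 on the same strand and was not analysed here.

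Other genes of the pathways were counted in lists, to be read against the shares of all genes called higher, which were 14.5%, 31.6% and 27.2% in rd10 DR, rd10 vehicle and rd10 TMB against WT. The list of 12 STAT3 response genes moved with the members, with 11 of 12 higher in rd10 DR (median log2 fold change 1.71), 11 of 12 in rd10 vehicle (2.83, and 1.98 without vehicle retina 4, with the same count) and 12 of 12 in rd10 TMB (2.26) against WT and 0 lower in each, where the median of all tested genes was 0.00, 0.01 and 0.00. Gfap, the intermediate filament of reactive glia, was 5.48-fold higher in rd10 DR (edgeR adjusted p = 1.4e-06), 7.24-fold in rd10 vehicle (1.22e-06; 6.095-fold without vehicle retina 4) and 5.19-fold in rd10 TMB (3.05e-09). In rd10 DR the transcription factor gene Junb was 2.64-fold higher, in rd10 vehicle the protease inhibitor A2m 8.68-fold, and in rd10 TMB the transcription factor gene Cebpd 6.78-fold. Against rd10 DR, 3 of the 12 were higher in rd10 vehicle and 2 in rd10 TMB, with 0 lower, near the 21.9% and 11.6% of all genes called higher. A2m (2.14-fold and 2.11-fold) and Serpina3n (2.13-fold and 2.04-fold) led them. Without vehicle retina 4 the count in rd10 vehicle was 4 higher and 1 lower, with a median of 0.19 in place of 0.51. In rd10 TMB against rd10 vehicle 0 of the 12 passed the test in edgeR, with a median of -0.08, and 1 was higher without vehicle retina 4, with a median of 0.11.

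Of the 8 other IL-6 family ligands listed, only 4 to 6 had enough counts to be tested in a comparison. Against WT, 0 of 4 passed in rd10 DR, 3 of 5 were higher in rd10 vehicle and 4 of 6 in rd10 TMB, with 0 lower. Ctf1, or cardiotrophin 1, was 1.55-fold higher in rd10 vehicle, and the cytokine gene Clcf1 was 2.29-fold higher in rd10 TMB. Of the other family receptors, 2 of 4 were higher and 1 lower in rd10 DR, 4 of 5 higher and 1 lower in rd10 vehicle, and 3 of 4 higher and 1 lower in rd10 TMB. Il6ra, the IL-6 receptor, was 2.40-fold, 6.92-fold (4.64-fold without vehicle retina 4) and 4.56-fold higher in these groups, and Il31ra was 2.30-fold higher in rd10 DR. Cntfr, the receptor subunit for ciliary neurotrophic factor, was 1.88-fold higher in rd10 vehicle and 1.67-fold in rd10 TMB. Il11ra1, the IL-11 receptor, was 1.57-fold, 1.55-fold and 1.52-fold lower. Against rd10 DR, Cntfr and Il6ra were the 2 of 5 that were higher in rd10 vehicle (1.66-fold and 2.91-fold, the latter 1.95-fold without vehicle retina 4) and in rd10 TMB (1.48-fold and 1.91-fold), and Ctf1 was 1.45-fold and 1.38-fold higher there. Against rd10 vehicle, 0 of 4 ligands and 0 of 5 receptors passed in rd10 TMB.

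Kinases, STAT factors and brakes went in both directions. Against WT, 6 of 16 were higher and 1 lower in rd10 DR (median 0.30), 8 of 16 and 3 in rd10 vehicle (0.39), and 10 of 17 and 3 in rd10 TMB (0.56). Jak3, a kinase of the family, was 4.43-fold higher in rd10 DR and 3.85-fold in rd10 TMB, Socs2, a brake on STAT5, 1.58-fold in rd10 DR and 2.03-fold in rd10 vehicle, and Stat5b 1.68-fold in rd10 vehicle and 1.48-fold in rd10 TMB. Pias3, a protein that inhibits STAT3, was 1.204-fold, 2.41-fold and 1.83-fold lower in rd10 DR, rd10 vehicle and rd10 TMB, and Cish, another brake, 1.70-fold lower in rd10 vehicle and 1.58-fold in rd10 TMB. Against rd10 DR, 5 of 17 were higher and 3 lower in rd10 vehicle and 2 of 17 higher and 3 lower in rd10 TMB, near the shares of all genes (21.9% higher and 20.6% lower, and 11.6% and 11.4%). Among them were Stat5b (1.38-fold and 1.21-fold) and Stat6 (1.49-fold and 1.25-fold) on the higher side, and Pias3 (1.98-fold and 1.51-fold) and Cish (1.58-fold and 1.47-fold) on the lower side. With all retinas this list held the only pathway genes called in rd10 TMB against rd10 vehicle, Pias3 at 1.31-fold higher (edgeR adjusted p = 0.0258) and Stat5b at 1.14-fold lower (edgeR adjusted p = 0.0231). Both passed without vehicle retina 4 (edgeR adjusted p = 0.0462 and 0.0382). Calls over the whole table in this comparison fell to 1 higher and 1 lower without vehicle retina 1. In females alone they fell to 0 and 0.

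In the endothelin system, 1 of 4 genes was higher in rd10 DR, 3 in rd10 vehicle and 4 in rd10 TMB against WT, with 0 lower. Ednra, the endothelin A receptor, was 1.67-fold, 2.02-fold and 1.81-fold higher, and Ece1, the enzyme that cleaves the endothelin precursor, was 1.497-fold and 1.47-fold higher in rd10 vehicle and rd10 TMB. Against rd10 DR, Ece1 was 1.24-fold and 1.21-fold higher in rd10 vehicle and rd10 TMB, and Ece2, a related enzyme, 1.41-fold higher in rd10 vehicle. Among other FGF ligands, 0 of 3 passed in rd10 DR, 2 of 3 were higher in rd10 vehicle and 1 of 3 in rd10 TMB against WT. Fgf1 was 1.26-fold and 1.18-fold higher in rd10 vehicle and rd10 TMB, and 1.19-fold higher in rd10 vehicle than in rd10 DR, while Fgf18 was 1.41-fold above WT in rd10 vehicle, a call lost without vehicle retina 4 (edgeR adjusted p = 0.0571). Of 4 FGF receptors, 1 was higher in rd10 DR and 3 in each of the other groups. Fgfr1 was 1.49-fold, 2.34-fold and 2.12-fold above WT, and Fgfr4 1.53-fold in rd10 vehicle and 1.41-fold in rd10 TMB. Against rd10 DR, 3 of 4 receptors were higher in rd10 vehicle, led by Fgfr1 at 1.58-fold and Fgfrl1 at 1.30-fold, and 1 of 4 in rd10 TMB, Fgfr1 at 1.43-fold.

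Genes that respond to FGF and ERK signalling or restrain it were higher in 4 of 10 cases in rd10 DR, 9 of 10 in rd10 vehicle and 9 of 10 in rd10 TMB against WT, with 1 lower in each. The feedback inhibitor genes Spry1 (1.67-fold and 1.78-fold in rd10 DR and rd10 TMB), Spred1 and Spred2 (1.503-fold and 1.47-fold in rd10 vehicle), the phosphatase Dusp6 (1.58-fold in rd10 DR) and the transcription factor gene Etv1 (1.48-fold in rd10 TMB) were higher. Spry2, of the same family, was the lower one, by 1.24-fold, 1.93-fold and 1.67-fold. Against rd10 DR, 6 of 10 were higher and Spry2 was lower in each light-exposed group, by 1.55-fold in rd10 vehicle and 1.34-fold in rd10 TMB, and Spred2 was 1.45-fold and 1.35-fold higher, with Etv4 1.67-fold higher in rd10 vehicle and Etv1 1.45-fold in rd10 TMB. NF-kappaB partners of Bcl3 were higher in 5, 4 and 6 of 9 cases in rd10 DR, rd10 vehicle and rd10 TMB against WT, with 0 lower, and 5 higher and 1 lower in rd10 vehicle without vehicle retina 4. Nfkb2, which encodes the p52 subunit that BCL3 binds, was 2.09-fold, 3.23-fold (2.53-fold without vehicle retina 4) and 2.50-fold higher, Relb 2.29-fold higher in rd10 DR, and Nfkb1, the p50 gene, 1.73-fold and 1.57-fold higher in rd10 vehicle and rd10 TMB and, as the 1 gene of 9, 1.42-fold and 1.28-fold higher there than in rd10 DR, where 2 of 9 were also lower in rd10 vehicle without vehicle retina 4. In rd10 TMB against rd10 vehicle, 0 genes of the endothelin, FGF and NF-kappaB lists passed the test in edgeR, and without vehicle retina 4 the FGF and ERK response list and the NF-kappaB list had 1 higher each.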

How the data were processed

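Polyadenylated RNA of 24 retinas was sequenced with a kit that keeps no strand. The authors aligned reads to GRCm38 with STAR and counted them per gene with HTSeq. The deposited values are raw counts, and the number of count columns not matched to a sample was 0. The deposited table also holds the authors' DESeq2 fold changes and p-values, which were not used. Each pair of groups was fitted alone in edgeR 4.0.16 (R 4.3.3; quasi-likelihood, two-sided) on genes that passed its default low count filter, with TMM scaling, with Benjamini-Hochberg adjustment over all genes tested and a threshold of 0.05. The SE is the absolute log2 fold change divided by the root of F. The fit was tested on simulated counts drawn with no outlying library and no prefix effect. That test does not cover results that rest on vehicle retina 4 or the RD9 females. DESeq2 1.42.0 was an alternative, beside no TMM, DESeq2 size factors, no filter, 1 fit over all groups, sex or prefix as covariate, subsets by sex or prefix, and leaving out each library. Lists without vehicle retina 4 were added after seeing the data. Positions and overlaps are from GENCODE M21.

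The members and gene lists were chosen with earlier results of these data known. All members analysed are named in each comparison, and of each list the 2 genes with the smallest p in each direction, except for 1 item that is not reported here. Libraries are single mice, so p-values rest on the spread between mice and take the mice as independent. The main fits held no term for title prefix or litter. The number of mice, and the 27 to 30 Lif counts and 39 to 48 Bcl3 counts in WT, limit precision.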

Additional observations from a re-analysis of the deposited data

Results flagged for a closer look

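Dixon's test was applied to 36 groups of values (9 genes in 4 groups). In 7 of them a retina lay far from its nearest neighbour for the range of its group. The critical values of the test flag about 1 in 20 groups when values are normal and groups are independent. The groups here share libraries, so the 7 flags were not set against that share. Vehicle retina 4 was set apart for Lif at 209.3 CPM, Socs3 at 246.0 CPM, Osmr at 115.2 CPM and Bcl3 at 26.89 CPM. Its Lif and Socs3 levels were known to be apart before the test was run. The others were rd10 DR retina 1 for Socs3 at 31.06 CPM, WT retina 1 for Bcl3 at 0.8598 CPM, and TMB retina 6 for Bcl3 at 18.07 CPM. The high Lif values of TMB retinas 1 and 2 were not set apart by this test, which compares the highest and the lowest value of a group each with its nearest neighbour.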

How the results depend on the processing

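No paired analysis was possible because the labels give no number that ties a retina of one group to a retina of another. The counts of 8 members higher and 1 lower in rd10 vehicle and in rd10 TMB against WT were the same under every alternative run, and the 8 higher in rd10 DR became 7 in males alone (Il6st lost) and in 1 fit over all groups (Lif lost). Scaling by library size alone moved the median of all genes by 0.218 in rd10 vehicle and 0.170 in rd10 TMB against WT and by 0.117 in rd10 vehicle against rd10 DR on the log2 scale. In DESeq2 counts far from their group were replaced. Unless the setting leaves out samples, the cause of a change was not tested.

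Genes called over the whole table moved as follows. In rd10 DR against WT, 2914 higher and 2041 lower became 1785 and 1121 in females and 325 and 212 in males, with 1171 lower without TMM. In rd10 vehicle against WT, 6275 lower became 3574 without TMM and 3935 in males. For rd10 TMB against WT, 5678 higher became 3563 in males, and 5201 lower became 2740 without TMM, 2914 in males and 3083 with the prefix RD9. In rd10 vehicle against rd10 DR, 4572 higher and 4301 lower became 1602 and 1774 in females. For rd10 TMB against rd10 DR, 2420 higher became 3735 without TMM, 119 in females, 1465 in males and 1414 with RD9, and 2389 lower became 383, 1329 and 1376 in these 3 subsets. Under TMB against vehicle, 683 genes higher became 1059 in DESeq2, 1027 in 1 fit over all groups, 0 in females, 1 in males, 0 with RD9, 7 with RD10 and 2 without the RD9 females. In the same comparison 469 lower became 1041 without TMM, 820 in DESeq2, 173 without the filter, 297 with prefix as covariate, 0 in females, 1 in males, 0 with RD9, 5 with RD10 and 1 without the RD9 females.

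Beside the changes against WT given above, the number of members called moved as follows. In rd10 vehicle against rd10 DR, 1 higher became 2 without TMM, in males, with RD9 and in 1 fit over all groups and 0 in females, and 2 lower became 1 in females and 4 without the RD9 females. Socs3 was also called lower there in DESeq2 (log2 fold change -0.383, DESeq2 adjusted p = 0.043). Stat3 was called lower there with RD10 (-0.363, edgeR adjusted p = 0.0025). For rd10 TMB against rd10 DR, 1 higher became 0 in females and in 1 fit over all groups and 2 with RD9, and 2 lower became 1 in females, in males, with RD9 and in 1 fit over all groups. With RD10, Stat3 was also called lower in that comparison (-0.268, edgeR adjusted p = 0.0321). Under TMB against vehicle, 1 higher became 2 in DESeq2 and 0 in females, in males, with RD9, with RD10 and without the RD9 females.

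Log2 fold changes that turned sign were these. In rd10 vehicle against rd10 DR, Stat3 was 0.015 with RD9, Socs3 was -0.38 in DESeq2, -0.13 in males, -0.43 with RD10 and -0.39 without the RD9 females, and Bcl3 was 0.002 in females and 0.29 with RD9. Between rd10 TMB and rd10 DR, Il6st was -0.025 in females, Socs3 -0.049 in females and -5.0e-04 with RD9, and Edn2 -0.097 with RD10. Between rd10 TMB and rd10 vehicle, Lif was 1.22 in DESeq2, Il6st 0.003 in males, and Osmr 0.15 with RD10 and 0.052 without the RD9 females. There Stat3 was -1.0e-04 without TMM, -0.071 in females and -0.090 with RD9, and Socs3 was 0.46 in DESeq2, 0.45 in males, 0.61 with RD10 and 0.50 without the RD9 females. Bcl3 was 0.031 with sex and 0.006 with prefix as covariate, 0.61 in males, 0.44 with RD10 and 0.37 without the RD9 females.

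Leaving out 1 library at a time gave these ranges. Members called lower in rd10 DR against WT were 0 to 1. In rd10 vehicle against rd10 DR, members called higher were 0 to 2 and lower 2 to 4, and Socs3 lay between -0.394 and 1.39. Between rd10 TMB and rd10 DR, members called lower were 1 to 3, all genes called higher 1609 to 2534, the lowest without rd10 DR retina 4, and Edn2 lay between -0.015, without TMB retina 2, and 0.19. Between rd10 TMB and rd10 vehicle, members called higher were 0 to 2, all genes called higher 1 to 962 and lower 1 to 741, with the lowest counts without vehicle retina 1 or 5. There Lif lay between -1.514 and 2.327, Osmr between -0.268 and 0.039, Stat3 between -0.003 and 0.128, Socs3 between -1.147 and 0.51, and Bcl3 between -0.161 and 0.342. In the comparison of the diet between sexes, 0 to 1 genes were called higher, Lif lay between -1.381 and 3.389, Osmr between -0.474 and 0.191, and Socs3 between -2.451 and 0.089. Vehicle retina 4 was the library whose loss turned the sign of Lif, Osmr and Socs3 in these last 2 comparisons.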
